A study of Rattus norvegicus with 15 samples.

Results

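Leg1, Papss2, Csta, Stfa3, Dnase1 and Cmahp were examined across the rat stomach and bowel: 6 genes, read by 9 probes, among 33648 genes tested and 41012 distinct probes on the array. They were picked by their array names, from measured values: the 6 genes stood out for a lower level in ileum than in jejunum or for a difference between duodenum and jejunum. Those differences are therefore given here as descriptions, with no test. The data did not bear out a loss in ileum for the whole group. Leg1 and Papss2 were high in duodenum and jejunum and low in ileum. Stfa3, and Csta by 1 of its 2 probes, were highest in jejunum and low in ileum. Dnase1 was high in jejunum and still high in ileum, and Cmahp was higher in ileum than in jejunum and highest in colon.

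Mucosal cells of 5 segments (stomach, duodenum, jejunum, ileum and colon) had been taken from Sprague Dawley male rats, 3 samples a segment, by everting the gut and releasing cells with the protease mixture pronase, followed by elutriation, a sorting of cells in a fluid stream. No treatment was given to any group, and the label of 1 ileal sample states neither strain nor sex. Amplified RNA carrying Cy3 or Cy5 dye was hybridised to whole-genome rat oligonucleotide arrays with 60-base probes, and each sample was read as a single colour. Whether the 3 isolations of a segment came from different rats is not in the labels, so p-values measure the spread between these isolations, which may be technical.

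Levels below are log2 signals relative to the 75th percentile of the same sample, so that 0 is a fairly bright gene and 1 unit is a doubling. A level belongs to its probe, and heights of different genes are not compared. Between 44.4% and 97.1% of spots per sample were well above background by the software's flag. The lowest share was in ileum 1, and the number of arrays, 3 a segment, limits the precision. The multiplier set for that flag was 2.6 in the stomach files and 13 in those of duodenum, jejunum and ileum. The colon files state none. Flags, and bounds that rest on them, are thus not like for like between segments. Gastric markers (parietal, chief and surface cell genes) had a summed relative level of 410.1 to 936.3 in stomach and at most 63.7 elsewhere, colonocyte markers 149.0 to 256.5 in colon and at most 16.95 elsewhere, and ileal enterocyte markers 59.96 to 87.33 in ileum and at most 13.4 elsewhere, so each of these tissues carried the markers of its label by this sum. The 149.0 is that of colon 3, which lacks Car1, a dropped spot there that read 6.875 and 7.075 in colon 1 and 2. Of the 9 colonocyte markers, limma called 5 lower and 2 higher in stomach than in colon. No scan day held samples of stomach, ileum or colon together with those of another segment, and the feature extraction software changed with the segments too (1 version for stomach, another for colon), so ileum against jejunum and stomach against colon have no value within 1 scan day. Duodenal and jejunal samples shared arrays in pairs, 1 in each dye.

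The small bowel is known to hand over from one epithelial programme to another along its length, with digestion and uptake of most nutrients in duodenum and jejunum and reclaiming of bile acids and cobalamin in ileum. The 6 genes belong to separate trades of the epithelial cell. Papss2 makes PAPS, the activated sulphate that every sulphotransferase uses, for mucins, steroids, bile acids and drugs. Csta and Stfa3 encode stefins, small inhibitors of papain-like cysteine proteases inside cells, and Dnase1 encodes a secreted endonuclease that degrades DNA. Cmahp, named Cmah on the array, encodes the hydroxylase that turns N-acetylneuraminic acid into N-glycolylneuraminic acid while it is bound to CMP; the gene is inactive in humans, hence the symbol. Leg1 encodes a secreted protein first described in liver development of fish, whose role in mammals is little known.

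The 2 stefin genes are so alike that the probes themselves matter for what was measured, and they are shown first. In the array's annotation (build rn3) 4 probes carry a stefin A name. For Csta, an inner probe lies at chr11:66524648-66524707 and an end probe, closer to the end of the transcript, at chr11:66524769-66524828, both on the plus strand. For Stfa3, an inner probe lies at chr11:66088547-66088606 on the minus strand, while the other probe of that name lies at chr11:66088435-66088494 on the plus strand, opposite to the inner one, and is called the antisense probe here. The inner probes are printed with capitals where the 2 sequences differ; 37 of 54 aligned bases (68.5%) were identical.

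Csta, inner probe: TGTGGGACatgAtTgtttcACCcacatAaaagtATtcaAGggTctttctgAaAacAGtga
Stfa3, inner probe: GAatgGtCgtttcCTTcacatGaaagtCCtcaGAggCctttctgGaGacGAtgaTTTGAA

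The end probe of Csta was a different case. It matched the reverse complement of the Stfa3 antisense probe, that is, the Stfa3 strand, at 51 of 57 aligned bases (89.5%), with an unbroken shared run of 39 bases that begins as follows.

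Run shared by the Csta end probe and the Stfa3 strand: cagcaaattctaaagtgacctgattcctct

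No other probe on the array held that stretch on either strand. The Csta end probe is therefore reported with the sequence likeness in view: RNA of Stfa3 carries nearly the same bases at that place, and how far it bound there was not tested.

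Csta read by its end probe stood at 5.14, 1.90 and 2.82 in jejunum 1, 2 and 3, and at 0.42, 0.44 and -0.11 in the 3 duodenal samples. It was -0.45, -0.45 and -0.34 in stomach, -2.31, -1.54 and -1.67 in ileum and -2.16, -2.14 and -3.05 in colon. The jejunal samples lay above all others, duodenum came next, then stomach, with no overlap between neighbours in this order, whereas ileum and colon overlapped. The mean was 3.29 ± 1.67 (SD, n = 3) in jejunum and -1.84 ± 0.41 (SD, n = 3) in ileum, a 34.9-fold lower signal, with 2 of the 3 ileal samples well above background. Stfa3 read by its inner probe had the same order. It was 4.04, 1.26 and 1.65 in jejunum, -0.72, 0.57 and -1.26 in duodenum and -1.97, -2.79 and -2.43 in stomach. Ileum (-3.48, -2.96 and -4.76) and colon (-3.78, -3.84 and -4.08) were lowest and overlapped. The jejunal mean exceeded the ileal mean 66.0-fold, a size that rests on faint spots, since only 1 of 3 ileal samples was well above background.

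The inner probe of Csta gave another pattern. Csta read by its inner probe was dim in every segment, with segment means from -3.79 ± 0.74 (SD, n = 3) in colon to -2.94 ± 0.83 (SD, n = 3) in ileum, and every pair of neighbouring segments overlapped. Jejunum, where the end probe was brightest, stood at -2.97, -3.35 and -3.30 by the inner probe, and 11 of the 15 samples were well above background. Over the 15 samples the Csta end probe correlated at r = 0.961 with the Stfa3 inner probe but at r = 0.221 with the Csta inner probe (Pearson, a description over samples that differ in segment, dye and slide). The Stfa3 antisense probe was dim too, at -1.18, -3.35 and -1.80 in jejunum and between -2.83 and -5.48 in stomach and duodenum, and overlapped between neighbouring segments. It too was highest on average in jejunum, and exceeded duodenum 2.05-, 11.2- and 2.12-fold on the 3 arrays that held a sample of each. The 11.2-fold value is jejunum 1 over duodenum 2, where neither spot was well above background, so its size is not reliable. The antisense probe correlated at r = 0.648 with the Csta end probe and at r = 0.596 with the Stfa3 inner probe. The jejunal peak of Csta thus rested on 1 of its 2 probes, the one whose sequence is nearly that of Stfa3.

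**Figure D1:**
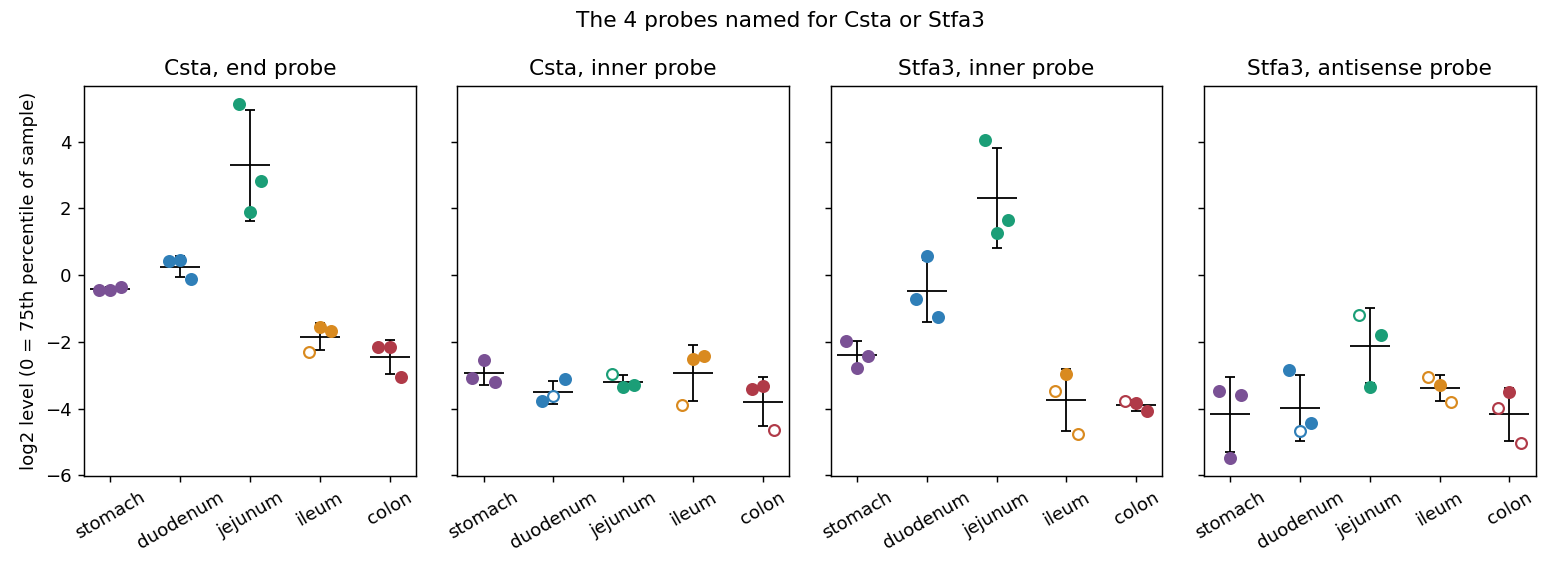
Log2 level of the 4 stefin probes in each sample by segment (filled points well above background, open points not; black bars mean and SD of 3 samples; 0 is the 75th percentile of the sample). The Csta end probe and the Stfa3 inner probe peak in jejunum, whereas the Csta inner probe stays between -4.64 and -2.42 in all 15 samples.

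For other inhibitors and their targets, the counts of calls within the small bowel were near the share over all genes. Of 17 other stefins and cystatins tested, limma called 0 between ileum and jejunum (1 lower at an unadjusted p under 0.05) and 0 between duodenum and jejunum (1 lower unadjusted, and 1 called without duodenum 3, jejunum 2 or colon 3), where 4.22% and 0.535% of all genes were called in either direction. Among 15 papain-like cysteine proteases, 1 was called between ileum and jejunum: Ctsh, an aminopeptidase of the lysosome, at 0.95 ± 0.25 log2 units higher in ileum (SE, adjusted p = 0.041 by limma with Benjamini-Hochberg), a call lost without any 1 of 12 of the samples (adjusted p up to 0.203). Neutrophil markers, relevant because rodent stefin A genes are known in myeloid cells, had a summed level of 3.28 to 3.97 in jejunum against 2.74 to 3.64 in duodenum and 3.19 to 4.08 in ileum, and 0 of 10 were called in either contrast, also at an unadjusted p. Squamous epithelium, another known site of stefin A, had 0 of 9 markers called by limma between ileum and jejunum (1 higher and 3 lower unadjusted), with summed levels of 6.58 to 9.04 in jejunum and 4.51 to 5.76 in ileum.

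The promoter windows of the stefin pair are shown because the brightest probes named for these genes had the same order of segments. That order is not established for Csta itself. Its end probe matched the Stfa3 strand at 51 of 57 aligned bases, and how far RNA of Stfa3 bound there was not tested. The Csta inner probe had another order, with overlap between neighbouring segments, and correlated at r = 0.024 with the Stfa3 inner probe. The windows come from RefSeq (build GRCr8), 250 bases before to 50 bases after the start, plus strand. In that source 5 of the 6 genes matched, with Leg1 the exception. Stfa3 lies at chr11:77858820-77859119 and Csta at chr11:78125563-78125862, and 236 of 290 aligned bases (81.4%) were identical. The capitals mark AGATAA, which is the core of a motif of GATA factors; it was searched for on both strands and found 78 bases before the Stfa3 start; at the aligned place Csta reads TGATTA.

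Stfa3 promoter: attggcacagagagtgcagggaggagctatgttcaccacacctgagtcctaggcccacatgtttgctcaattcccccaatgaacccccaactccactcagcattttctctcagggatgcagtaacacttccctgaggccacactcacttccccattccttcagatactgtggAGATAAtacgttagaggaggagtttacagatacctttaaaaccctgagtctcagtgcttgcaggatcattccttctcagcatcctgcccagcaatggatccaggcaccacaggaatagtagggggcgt
Csta promoter: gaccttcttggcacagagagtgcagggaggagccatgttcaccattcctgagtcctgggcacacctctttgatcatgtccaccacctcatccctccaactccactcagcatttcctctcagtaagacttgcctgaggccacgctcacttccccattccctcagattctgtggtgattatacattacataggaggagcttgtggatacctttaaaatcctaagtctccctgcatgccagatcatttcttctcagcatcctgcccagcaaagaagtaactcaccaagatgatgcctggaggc

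AGATAA occurs in 11.6% of 33469 promoters of that length, and in none of the 4 other windows of these genes. TGATAA (9.03% of promoters), the HNF1-type GTTAAT (7.45%) and the HNF4-type CAAAGTCCA (0.391%), each searched on both strands, were in none of the 5 windows. The CDX-type TTTATG (12.7%) was in that of Dnase1, and the TATA-type TATAAA (14.2%) in those of Papss2, Dnase1 and Cmahp. A match describes letters in a window and no binding was measured.

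Leg1 was read by a single probe, which maps to chr1:29617196-29618502 (rn3, plus strand), a span of 1307 bases for a 60-base probe. The 3 duodenal samples were nearly equal at 1.86, 1.90 and 1.78. Jejunum held 3.98, 1.09 and 1.07, so that jejunum 1 lay above and the others below the duodenal samples. Ileum stood at -4.78, -1.68 and -5.98, of which only the ileum 2 value was well above background. Stomach (-6.44, -4.86 and -5.66) and colon (-5.81, -6.58 and -6.77) were at the faint end of the array, with 2 of 3 gastric samples and none of the colonic ones well above background. The jejunal mean of 2.05 ± 1.68 (SD, n = 3) exceeded the ileal mean of -4.15 ± 2.22 (SD, n = 3) 73.1-fold, and the colonic level at least 106-fold, where the bound takes the dimmest signal well above background in each sample. The 73.1-fold size rests on faint ileal spots, as 2 of the 3 were not well above background. Duodenum and jejunum did not differ beyond their spread, and ileum, stomach and colon overlapped in turn. As fewer cells of a type and less RNA per cell cannot be told apart in such suspensions, every level here is one of the suspension as a whole.

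Papss2 had a second peak that Leg1 lacked. Its main probe (chr1:236839848-236839907, rn3, plus strand) read 6.18, 5.70 and 5.46 in duodenum and 7.20, 4.67 and 5.36 in jejunum. Ileum stood far below that at -0.76, 1.89 and -0.12, close to stomach at 0.60, 0.38 and 0.70. Colon was in between at 3.37, 3.52 and 3.71, above all ileal and gastric samples and below all duodenal and jejunal ones. The jejunal mean of 5.74 ± 1.30 (SD, n = 3) was 42.5-fold above the ileal mean of 0.33 ± 1.38 (SD, n = 3), and colon was 9.18-fold above ileum. The second probe of the gene (chr1:236840031-236840090) gave the same order of segments, with jejunum 20.0-fold above ileum and colon 2.92-fold above it, and correlated with the main probe at r = 0.953 over the 15 samples.

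Papss1, the other PAPS synthase, was distributed otherwise. It was 3.88, 3.62 and 3.91 in stomach and 3.91, 3.94 and 3.92 in colon, against 1.22 to 1.78 in duodenum, 1.39 to 1.96 in jejunum and 2.09 to 2.25 in ileum. The segments with most Papss2 signal were thus those with least Papss1 signal, each gene read against itself. Between ileum and jejunum Papss1 differed by 0.45 ± 0.22 log2 units (SE, adjusted p = 0.243 by limma), which does not pass the threshold.

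Of 14 other genes of sulphate transport and PAPS supply, limma called 3 higher and 2 lower in ileum than in jejunum, and 0 between duodenum and jejunum (2 lower at an unadjusted p under 0.05, and 1 called without jejunum 1). Over all genes 1.45% were higher and 2.77% lower in ileum, and 0.535% were called between duodenum and jejunum. Bpnt1, the nucleotidase that clears the PAP left behind when PAPS is used, followed Papss2. It read 4.04, 5.45 and 3.95 in duodenum, 5.15, 3.67 and 3.52 in jejunum and 1.28, 2.19 and 1.61 in ileum, and fell by 2.41 ± 0.39 log2 units from jejunum to ileum (SE, adjusted p = 0.00274 by limma). The genes that rose in ileum act in the oxidation of sulphur to sulphate. Suox, sulphite oxidase of mitochondria, rose by 1.71 ± 0.28 log2 units (adjusted p = 0.00332), and Sqor, which oxidises hydrogen sulphide, by 1.59 ± 0.31 (adjusted p = 0.00878). Ethe1, the persulphide dioxygenase, rose by 1.51 ± 0.32 (adjusted p = 0.0156). Bpnt1 and Suox kept their calls without any 1 sample, whereas Ethe1 lost its call without jejunum 1 (adjusted p = 0.0798) or without ileum 3 (adjusted p = 0.0775). The second lower call was lost without any 1 of 11 of the samples, and with jejunum 1 and ileum 2 both left out the list held 1 call in each direction.

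The enzymes that use PAPS are set beside 4.22% of all genes called between ileum and jejunum and 0.535% between duodenum and jejunum. Among 24 Golgi sulphotransferases tested, limma called 0 in ileum against jejunum (1 higher and 1 lower unadjusted) and 0 in duodenum against jejunum (1 lower unadjusted). Among 13 cytosolic sulphotransferases, 1 was called in each direction between ileum and jejunum, and both calls were lost without any of several single samples. Sult1c2 and Sult1c2a, which act on phenols and drugs, were the 2 genes of that list called in duodenum against jejunum. Sult1c2 was higher in duodenum by 2.68 ± 0.20 log2 units (SE, adjusted p = 8.69e-07) and Sult1c2a by 2.42 ± 0.24 (adjusted p = 4.09e-05, both by limma), and both calls were kept under each alternative tried.

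**Figure D2:**
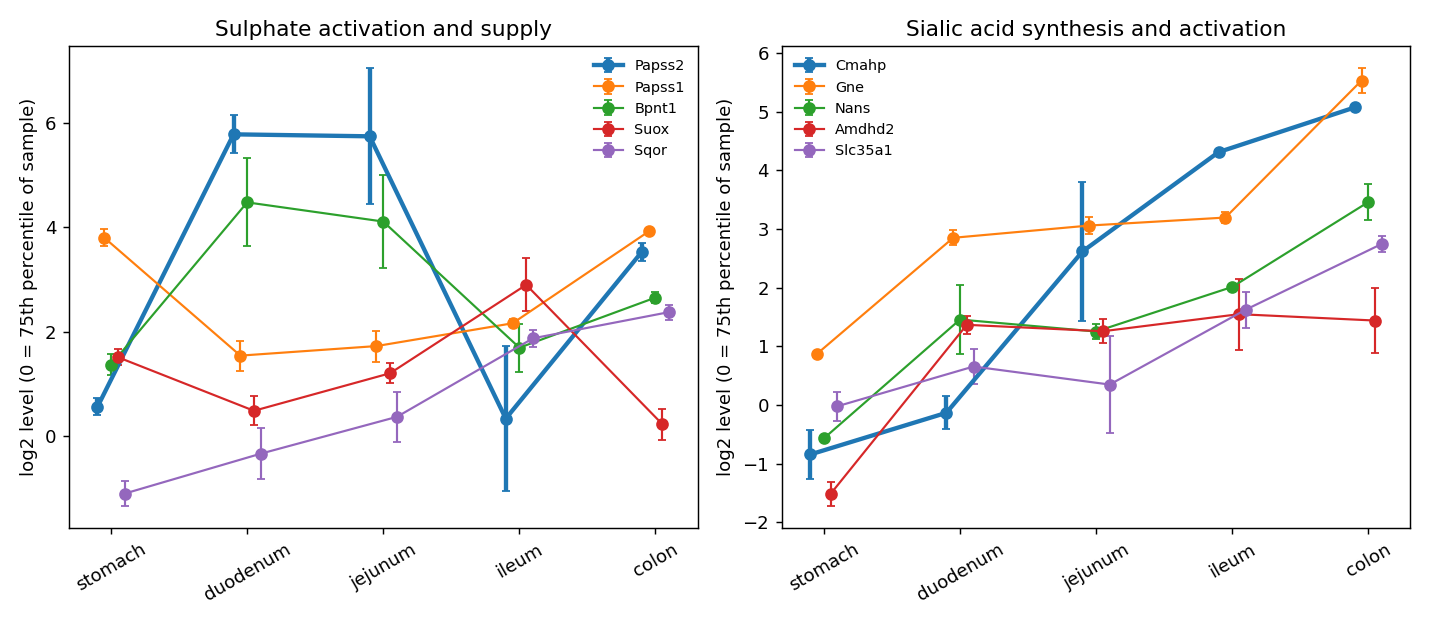
Mean log2 level and SD (3 samples a segment; 0 is the 75th percentile of the sample) of Papss2 with 4 genes of sulphate supply (left) and of Cmahp with 4 genes of sialic acid synthesis and activation (right). Papss2 and Bpnt1 are high in duodenum and jejunum where Papss1 is low, and Cmahp climbs from a mean of -0.85 in stomach to 5.07 in colon; heights of different genes cannot be compared.

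Dnase1 separated jejunum from duodenum more than any of the other 5 genes. Its probe (chr10:11762599-11762658, rn3, minus strand) read 1.71, 1.29 and 1.74 in duodenum and 6.82, 5.78 and 6.46 in jejunum, a 27.3-fold difference of means. Ileum held 3.56, 5.99 and 2.65. Ileum 2 thus lay within the jejunal range, so that jejunum and ileum overlapped, and all 3 ileal samples lay above the duodenal ones. Stomach (-1.45, -1.38 and -1.49) and colon (-1.44, -1.93 and -1.48) were lowest and alike. The ileal mean of 4.07 ± 1.72 (SD, n = 3) was 4.87-fold below jejunum but 5.60-fold above duodenum and 51.4-fold above colon.

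Of 30 other genes of nucleic acid digestion and nucleoside uptake tested, limma called 7 lower and 2 higher in ileum than in jejunum, against 2.77% lower and 1.45% higher over all genes. The median difference of the list was -0.19, and 0.10 over all genes. Alpi, the intestinal alkaline phosphatase, fell by 4.99 ± 0.55 log2 units (SE, adjusted p = 9.02e-05), with 5.20, 3.26 and 3.13 in jejunum and -1.89, 0.48 and -1.71 in ileum. Upp1, uridine phosphorylase, fell by 2.26 ± 0.38 (adjusted p = 0.00341), and Enpp3, a phosphodiesterase of the cell surface, by 2.82 ± 0.52 (adjusted p = 0.00651). Ada, adenosine deaminase, fell by 2.86 ± 0.58 (adjusted p = 0.0115), a call lost without ileum 1 (adjusted p = 0.0544). The 7 lower calls became 4 without jejunum 1, 3 without ileum 1 and 4 without ileum 3, and the 2 higher ones became 0 without jejunum 1, jejunum 3 or ileum 3. Between duodenum and jejunum 0 of the 30 were called by limma, none at an unadjusted p under 0.05 either, and 1 was called higher without jejunum 1. Pancreatic acinar markers, of interest because pancreas is known to make Dnase1, had summed levels of 11.6 to 14.7 in jejunum, 14.0 to 15.7 in duodenum, 10.4 to 13.0 in ileum and 127.2 to 247.8 in stomach. Of 19 such markers, limma called 2 higher and 0 lower in duodenum than in jejunum (6 higher unadjusted). Over all genes 0.25% were higher and 0.285% lower there. Between ileum and jejunum 1 marker was called higher and 0 lower (2 in each direction unadjusted). These marker counts were not repeated with samples left out. Clps and Pla2g1b, acinar genes of this list, were saturated in 1 and 3 samples, and the part of such cells in the Dnase1 levels was not tested.

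Cmahp ran the other way along the gut. Its probe (chr17:47675339-47675398, rn3, minus strand) read -1.06, -0.37 and -1.11 in stomach and -0.05, -0.45 and 0.09 in duodenum, which overlapped. Jejunum followed at 2.47, 1.52 and 3.86, ileum at 4.28, 4.28 and 4.37 and colon at 5.04, 5.06 and 5.11. Each of these last steps was free of overlap. Jejunum was 6.73-fold above duodenum, ileum 3.24-fold above jejunum and colon 1.70-fold above ileum. The jejunal samples had the widest spread (SD 1.18, n = 3) and those of ileum and colon the narrowest (SD 0.05 and 0.04, n = 3 each).

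Of 17 other genes of sialic acid synthesis, activation and breakdown, limma called 2 higher and 0 lower in ileum than in jejunum (1 lower without duodenum 2, duodenum 3 or jejunum 2), where 1.45% of all genes were higher and 2.77% lower, and 0 between duodenum and jejunum, also at an unadjusted p under 0.05. Neu1, the lysosomal sialidase, rose by 1.34 ± 0.29 log2 units in ileum (SE, adjusted p = 0.0174), a call lost without jejunum 1 (adjusted p = 0.0518) or ileum 3 (adjusted p = 0.085). Slc35a1, which carries CMP-sialic acid into the Golgi, rose by 1.35 ± 0.35 (adjusted p = 0.0405) and lost its call without any 1 of 10 of the samples. Of 19 sialyltransferases 2 were higher in ileum, beside the same 1.45%. St3gal4 rose by 2.49 ± 0.46 (adjusted p = 0.0066), with 2 of 3 jejunal samples well above background. St6gal1 rose by 1.63 ± 0.34 (adjusted p = 0.0137) and lost its call without ileum 1 (adjusted p = 0.0513) or ileum 3 (adjusted p = 0.0624).

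**Figure D3:**
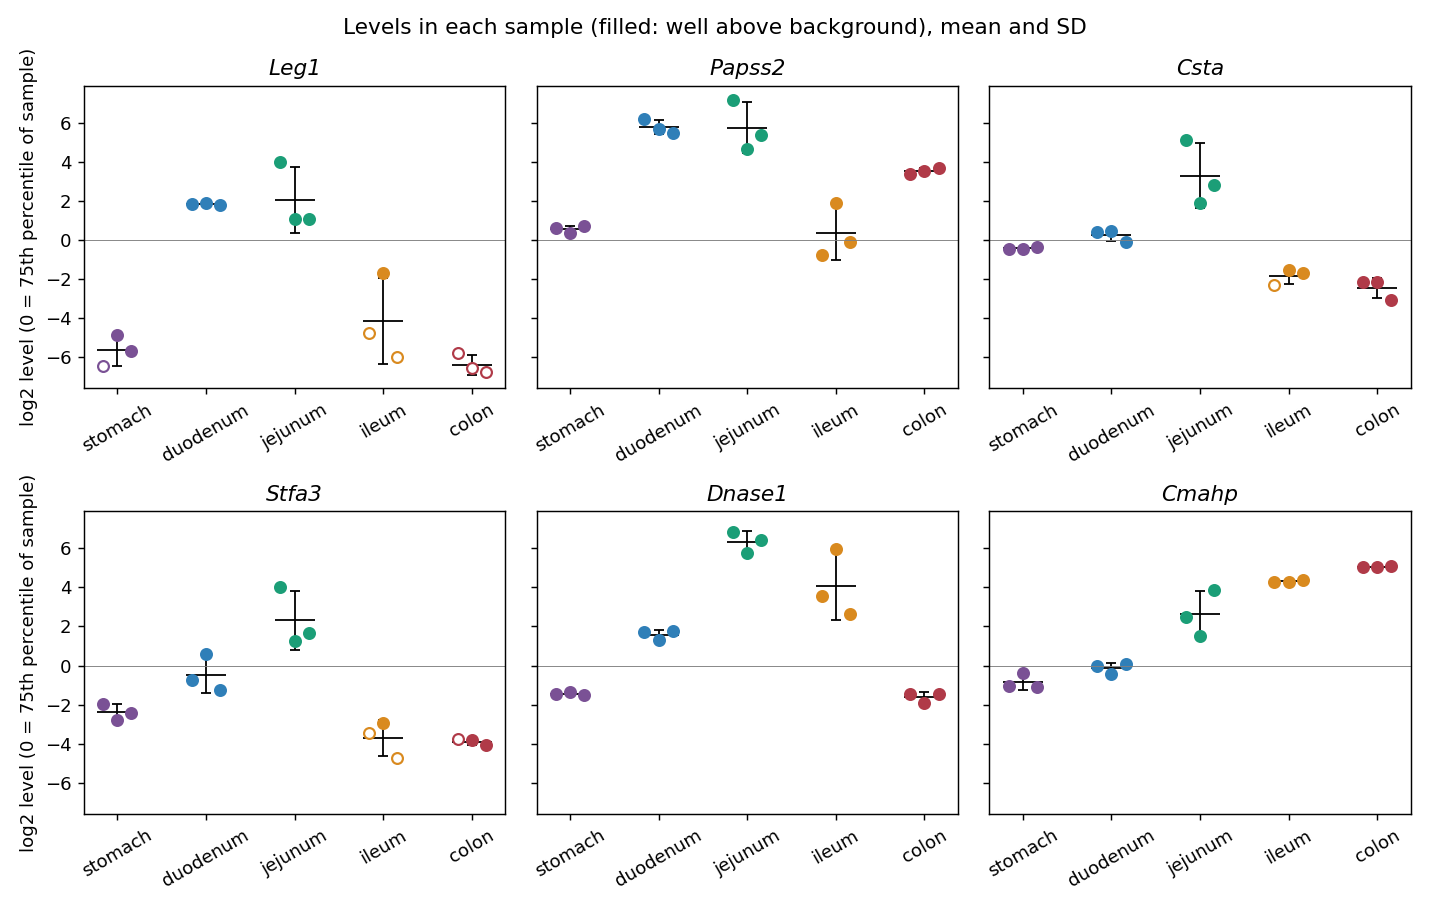
Log2 level of each gene, on its brightest probe, in each sample by segment (filled points well above background, open points not; black bars mean and SD of 3 samples; 0 is the 75th percentile of the sample). Leg1 and Papss2 are high in duodenum and jejunum, Csta (end probe) and Stfa3 peak in jejunum, Dnase1 is high in jejunum and ileum, and Cmahp is highest in colon.

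Sample by sample, jejunum 1 and ileum 2 recurred. Jejunum 1 was the highest jejunal sample for 5 of the 6 genes and ileum 2 the highest ileal sample for the same 5, with Cmahp the exception in both segments. By mean log2 level, markers of enterocytes, goblet cells and enteroendocrine cells were highest in the same samples. By summed level the enteroendocrine markers were highest in ileum 1 (69.15), with 66.99 in ileum 2 and 65.99 in ileum 3. The mean log2 level of 15 enterocyte markers was 5.28 in jejunum 1 against 3.57 and 3.75 in the other jejunal samples, and 3.13 in ileum 2 against 1.90 and 1.89 in the other ileal ones. Duodenum held 2.91 to 3.27, stomach -1.93 to -1.81 and colon -0.11 to -0.00. In ileum against jejunum 8 of the 15 were called lower and 0 higher (limma, adjusted p under 0.05); the 8 became 5 without stomach 1, 3 without jejunum 1, ileum 1 or ileum 3, and 13 without jejunum 2. The goblet cell markers had a mean log2 level of 6.21 in jejunum 1 against 5.34 and 5.83, and of 4.98 in ileum 2 against 4.70 and 4.06. Enteroendocrine markers had 3.76 in jejunum 1 against 2.71 and 3.24, and 2.34 in ileum 2 against 1.90 and 2.02. In ileum against jejunum 4 of 5 goblet cell markers were lower, 5 of 10 enteroendocrine markers were lower and 2 higher, and 4 of 8 Paneth cell markers were higher. Over all genes 2.77% were lower and 1.45% higher, the background for these counts and for that of the enterocyte markers. The goblet, enteroendocrine and Paneth cell counts were not repeated with samples left out. The part of any of these cells in the results was not tested. Alpi stands both in the enterocyte list and in that of nucleic acid digestion.

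Taking the enterocyte marker mean of each sample off its values moves the ileum minus jejunum difference of every gene by the same amount, so the shift itself says nothing about a single gene. The difference became -4.30 for Leg1 (from -6.19), -3.52 for Papss2 (from -5.41), -3.23 for Csta by its end probe (from -5.13) and -4.15 for Stfa3 (from -6.04), and for these 4 the jejunal and ileal samples did not overlap afterwards. It became -0.39 for Dnase1 (from -2.28), whose samples overlapped before and after, and 3.59 for Cmahp (from 1.69). With jejunum 1 and ileum 2 both left out, the differences were -6.46 for Leg1, -5.46 for Papss2, -4.35 for Csta, -5.57 for Stfa3, -3.01 for Dnase1 and 1.64 for Cmahp. The genes had been picked partly on ileum against jejunum, and the share of all genes without overlap after the same step was not counted. Of the 15 enterocyte markers, 8 were themselves called lower in ileum by limma. How much of any difference the share of enterocytes accounts for was not tested.

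Arrays that held a duodenal and a jejunal sample allow a comparison within 1 hybridisation. For Dnase1 the jejunal signal was 26.9-fold (jejunum 3 over duodenum 1), 46.1-fold (jejunum 1 over duodenum 2) and 16.4-fold (jejunum 2 over duodenum 3) the duodenal one. Stfa3 gave 5.15-fold, 11.1-fold and 5.74-fold on the same arrays, and Csta by its end probe 5.28-fold, 25.9-fold and 4.02-fold. Cmahp gave 15.0-fold, 7.54-fold and 2.69-fold. These 4 genes were higher in jejunum on all 3 arrays, in either dye order. The same samples had served to pick the genes, so this is a description only. How many of all genes keep a single direction on the 3 arrays was not counted. Leg1 and Papss2 did not keep a direction. Their jejunal signals were 0.577 and 0.567 times the duodenal ones on the first array and 0.620 and 0.578 times on the third, but 4.24 and 2.82 times on the array with jejunum 1. Without jejunum 1, duodenum exceeded jejunum by 0.77 log2 units for Leg1 and by 0.76 for Papss2, whose difference over all samples was 0.04.

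**Figure D4:**
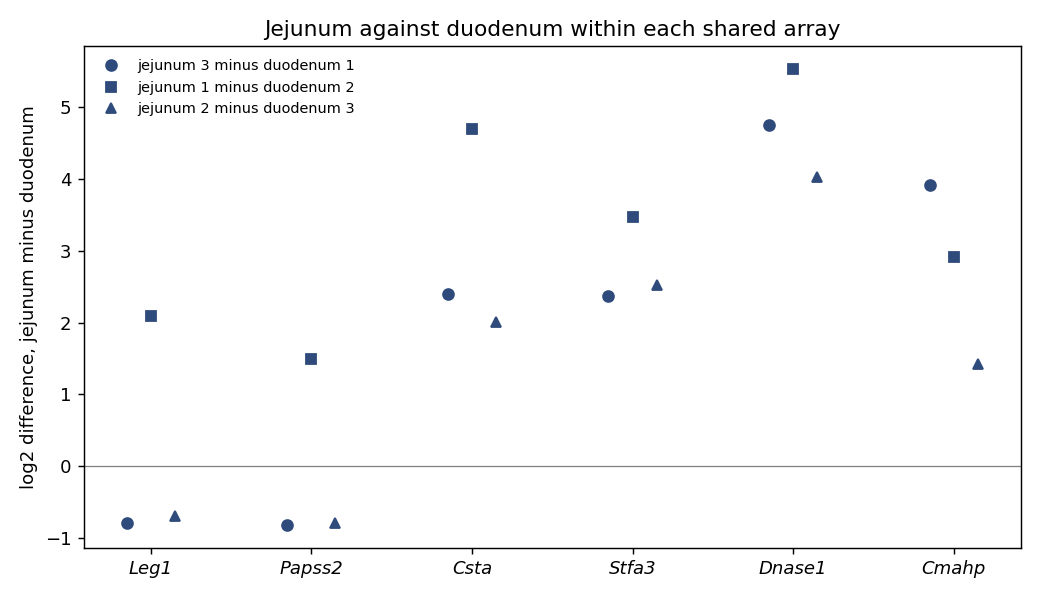
Log2 difference of jejunum minus duodenum for each gene within the 3 arrays that held a sample of each (a symbol per array; above 0 is higher in jejunum). Csta (end probe), Stfa3, Dnase1 and Cmahp lie above 0 on all 3 arrays, whereas Leg1 and Papss2 lie above 0 only on the array with jejunum 1.

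Stomach against colon is the comparison that played no part in picking these genes, and here they were tested. limma called 3 of the 6, 2 lower and 1 higher in stomach, where 35.3% of all genes were called (21.1% higher and 14.2% lower in stomach); a share of this size is near the background. Cmahp was 5.78 ± 0.47 log2 units lower in stomach than in colon (SE, adjusted p = 1.46e-07, samples not overlapping), and Papss2 was 3.05 ± 0.70 lower (adjusted p = 0.00306, samples not overlapping). The second Papss2 probe gave a smaller difference of means, 1.64-fold lower in stomach against 7.85-fold by the main probe, without overlap either. Both calls were kept under each of the alternatives tried. Csta by its end probe was 1.92 ± 0.66 higher in stomach (adjusted p = 0.032), a call lost without stomach 1, 2 or 3 (adjusted p = 0.0524, 0.0572 and 0.121), without colon 1 (0.062) or without colon 3 (0.101), and over the mean of both Csta probes (0.0641). Stfa3 differed by 1.43 ± 0.68 (adjusted p = 0.115) and passed without jejunum 1 (adjusted p = 0.049) and with the replicate number as a block (adjusted p = 0.0225). Dnase1 differed by 0.15 ± 0.67 (adjusted p = 0.884) and Leg1 by 0.52 ± 1.02 (adjusted p = 0.723), with Leg1 not well above background in any colonic sample. The scale matters in this contrast: the median over all genes was 0.26, and 0.01 after quantile normalisation and -0.40 after normexp background correction, under which 3974 genes were called higher and 7800 lower in place of 7086 and 4791.

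Around Cmahp, 9 of the 17 sialic acid genes tested were lower and 1 higher in stomach than in colon, beside 14.2% lower and 21.1% higher over all genes. The lower count was also 9 without any 1 sample; the list's median difference was -1.44, against 0.26 over all genes. Gne, the rate-limiting enzyme of sialic acid synthesis, was 4.67 ± 0.25 log2 units lower in stomach (SE, adjusted p = 8.91e-10), with 0.90, 0.83 and 0.88 in stomach and 5.52, 5.32 and 5.74 in colon. Nans, sialic acid synthase, was lower by 3.97 ± 0.33 (adjusted p = 2.08e-07), and Slc35a1 by 2.70 ± 0.41 (adjusted p = 0.000103). The single higher call was lost without any of several samples. Sialyltransferases were split, with 5 higher and 2 lower. St6galnac6 and St6galnac1 were lower in stomach by 5.53 ± 0.57 (adjusted p = 2.1e-06) and 3.60 ± 0.39 (adjusted p = 3.44e-06), and St3gal5, which makes the ganglioside GM3, was higher by 2.82 ± 0.44 (adjusted p = 0.000144). The 5 higher calls became 3 without stomach 3.

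Around Papss2, 7 genes of sulphate supply were lower and 2 higher in stomach than in colon, of 14. Over all genes 14.2% were lower and 21.1% higher, the background for each list in this paragraph. Ethe1 was 4.55 ± 0.37 log2 units lower (SE, adjusted p = 1.56e-07), Sqor 3.39 ± 0.36 lower (adjusted p = 2.68e-06) and Slc35b2, the carrier of PAPS into the Golgi, 2.22 ± 0.25 lower (adjusted p = 1.34e-05). Cdo1, cysteine dioxygenase, was at least 11.8-fold higher in stomach (adjusted p = 0.000422), as no colonic sample was well above background. Cytosolic sulphotransferases had the opposite balance, with 7 higher and 2 lower of 13 (1 lower without stomach 1, stomach 3 or colon 1). Sult1c3 was 7.28 ± 0.53 log2 units higher in stomach (adjusted p = 3.51e-08) and Sult2a2 4.45 ± 0.41 higher (adjusted p = 6.04e-07). Golgi sulphotransferases had 5 higher and 5 lower of 24, beside 21.1% and 14.2% over all genes; the 5 higher calls became 2 without stomach 3, 3 under quantile normalisation, 1 under normexp and 3 over the mean of all probes. Among the other stefins and cystatins 3 were higher and 3 lower of 17, with Cstb, the widespread stefin B, lower in stomach by 1.42 ± 0.35 (adjusted p = 0.00525). Of the cysteine proteases 1 was higher (2 without jejunum 1) and 4 lower of 15, among them Ctss, cathepsin S, at 4.03 ± 0.29 lower in stomach (adjusted p = 3.16e-08).

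No link between these profiles and regional transcription factors was tested, and the factors are described beside them. Of 20 tested, 4 were lower and 1 higher in ileum than in jejunum by limma, where 2.77% and 1.45% of all genes were called; the lower count ranged from 3 to 5 without any 1 sample, and the higher call was lost without any 1 of 13 of the samples. Gata4, the factor of proximal bowel identity, read 2.31, 2.43 and 2.71 in jejunum and 0.57, 1.04 and -0.00 in ileum, and fell by 1.95 ± 0.29 log2 units (SE, adjusted p = 0.00157). Pdx1, the factor of duodenum and pancreas, fell by 3.13 ± 0.29 from jejunum to ileum (adjusted p = 1.67e-05). Hnf4a fell by 1.93 ± 0.33 (adjusted p = 0.00376), a call lost over the mean of all probes of the gene. Creb3l3, a membrane-bound factor of lipid metabolism, fell by 3.41 ± 0.64 (adjusted p = 0.00705), a call lost without jejunum 1 (adjusted p = 0.0518). Between duodenum and jejunum 1 was higher and 1 lower, beside 0.25% and 0.285% over all genes. Pdx1 was higher in duodenum by 1.71 ± 0.23 (adjusted p = 0.00131), a call lost without duodenum 1 (adjusted p = 0.147) or jejunum 3 (adjusted p = 0.191). Hnf4a differed by -1.34 ± 0.26 (adjusted p = 0.0286), a call lost under 10 of the alternatives.

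The genes most like each of the 6 were found by Pearson correlation over the 15 samples among 14753 genes with an established symbol. For Leg1 they included Alpi (r = 0.987), G6pc1 (0.970) and Angptl4 (0.966). For Papss2 they were Hsd17b2 (0.959), Ndufs3 (0.947), Bpnt1 (0.942) and Nomo1 (0.940). Csta and Stfa3 headed each other's lists, followed for Csta by Or1f26 (0.948), Cyp2j4 (0.935) and Sec16b (0.926) and for Stfa3 by Cyp2j4 (0.938), Angptl4 (0.906) and Ckb (0.904). For Dnase1 they were Abcg5 (0.948), Fabp2 (0.944), Pla2g12b (0.942) and Pepd (0.939), and for Cmahp Osr2 (0.943), Sqor (0.938), Trpm6 (0.932) and Pip4k2c (0.931). These values describe 15 samples that fall into 5 segments and share dyes, slides and scan days. Among the 6 genes themselves, Leg1 correlated with Stfa3 at 0.865 and with Papss2 at 0.791, whereas Cmahp correlated with the other 5 between -0.34 and 0.20.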

How the data were processed

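RNA of 15 mucosal cell samples was measured on whole-genome rat arrays. The authors' scanner files hold, per the file headers, intensity values after background subtraction and dye normalisation by the Agilent feature extraction software (versions 8.5.1.1, 9.5.1.1, 9.5.3.1 and 10.1.1.1). The deposited value table holds the same intensity: it matched the processed signal of the labelled channel within 0.02 log2 units for 100.0% of the spots of each sample. That signal was taken to log2, less the 75th percentile of the sample. Spots that the software marked as uneven or as outliers were dropped, and no spot of the 6 genes was among them or saturated. Probes (38846) well above background in all samples of at least 1 segment were tested, and the brightest probe stood for a gene. The multiplier of that flag differed between segments (2.6 in stomach, 13 in duodenum, jejunum and ileum, not stated for colon). limma 3.58.1 (R 4.3.3) fitted segment and dye, with the slide as random block (correlation 0.361; all 3 colon samples carry 1 slide number, but colon 3 comes from another scan and day, so its place in that block is uncertain) and an intensity trend, and Benjamini-Hochberg adjustment ran over 33648 genes; the fit was tested on simulated data. Of 41012 probes, 10735 were named through accessions, 5571 through current symbols and 3729 through older symbols (RefSeq, GRCr8), and the others keep the file's name.

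The 6 genes and all gene lists were chosen with earlier results of these data known. Beside the 6, at most 4 called genes per list and contrast were named, those with the largest difference, and the 4 genes most correlated with each, of which 1 is not reported here. The normexp alternative used median foreground and background signals, since the colon files hold no mean signal. Settings tried were 3 scalings, normexp, filters, blocks, probes and samples left out.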

Additional observations from a re-analysis of the deposited data

How the results depend on the processing

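The low ileal levels of Leg1, Papss2, Csta (end probe) and Stfa3, and the calls of Cmahp and Papss2 in stomach against colon, kept their direction under every alternative tried. Ileal and jejunal values had served to pick the genes, so for the ileal levels this describes the processing only. The Csta inner probe, read alone, had a mean of -2.94 in ileum and -3.20 in jejunum, with overlap. Relative to the enterocyte markers, a setting chosen after seeing the data, the ileum minus jejunum difference was -3.52 for Papss2, -3.23 for Csta, -4.15 for Stfa3, -0.39 for Dnase1 and 3.59 for Cmahp, and the duodenum minus jejunum difference -1.66 for Cmahp, -3.67 for Dnase1, 1.13 for Papss2 and 0.90 for Leg1 (from -0.20). With jejunum 1 and ileum 2 both left out, also chosen after seeing the data, Leg1 turned to 0.77 in duodenum minus jejunum, Stfa3 passed in stomach minus colon at 1.52, and the counts were 165 higher and 380 lower in ileum minus jejunum and 61 lower in duodenum minus jejunum. Over the mean of all probes Csta differed by -1.67 (duodenum minus jejunum), -2.43 (ileum minus jejunum) and 1.35 (stomach minus colon, call lost), and Stfa3 by -3.66 (ileum minus jejunum). With normexp the ileum minus jejunum difference was 2.80 for Cmahp and -4.50 for Stfa3. In stomach minus colon, normexp turned Dnase1 to -0.21, Leg1 to -1.03 and Stfa3 to -0.16, and called 3974 genes higher and 7800 lower. Quantile normalisation turned Dnase1 to -0.15 and Leg1 to -0.10 there. Without the intensity trend the Csta difference of 1.92 lost its call. In each of these cases the cause was not tested.

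The median over all genes in ileum minus jejunum was 0.10, and -0.14 with normexp. Counts over all genes moved as well. In ileum minus jejunum (488 higher, 932 lower) they were 212 and 491 with scan day as block and 293 and 408 without the trend. In duodenum minus jejunum (84 higher, 96 lower) the higher count was 32 without the slide block, and the lower count was 145 after quantile normalisation, 201 without the dye term, 15 without the slide block, 156 with scan day as block and 60 without the trend.

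Whether same-numbered samples of different segments came from the same rat is not in the labels. Their deviations from the segment means correlated between -0.414 and 0.192 in stomach with colon, ileum with jejunum and duodenum with jejunum. These values cannot decide it. Deviations within a segment of 3 samples are tied to each other, and same-numbered duodenal and jejunal samples lay on different slides. With the replicate block the counts were 255 higher and 449 lower in ileum minus jejunum and 42 higher and 31 lower in duodenum minus jejunum, and Stfa3 passed in stomach minus colon at 1.89.

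Leaving out 1 sample in turn gave, in ileum minus jejunum, 147 to 1710 genes higher and 302 to 1891 lower. In duodenum minus jejunum it gave 18 to 534 higher and 10 to 664 lower, -0.69 to 0.77 for Leg1 and, from 0.04, -0.50 to 0.76 for Papss2 (-0.16 without duodenum 1, -0.15 without jejunum 3). In stomach minus colon it gave 4681 to 7590 higher and 3479 to 5401 lower, 1.69 to 2.11 for Csta and 1.26 to 1.65 for Stfa3. Signal over background limits Leg1 in stomach, ileum and colon and both dim stefin probes, where differences are those of faint spots.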
